A study of Homo sapiens with 21 samples.

Results

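The axon guidance genes of human iPSC-derived cardiomyocytes were followed as one group. Members were the genes whose symbol belongs to a semaphorin, plexin, ephrin, EPH receptor, neuropilin, SLIT, ROBO, netrin or UNC5 family. In the GENCODE 44 annotation 68 genes carry such a symbol, and 60 of them, with 136 transcripts, were listed in at least 1 of the 6 deposited tables, out of 21537 listed transcripts of 11851 genes. EPHA5, EPHA10, NTN3, NTN5, ROBO4, SEMA3B, SEMA4B and SEMA4F were listed nowhere. The libraries came from PGP1, an established human iPSC line, in which UBE2B, the ubiquitin-conjugating enzyme that works with RNF20 and RNF40 on histone H2B, was either intact or disrupted. Wild-type cells were collected as iPSCs, mesoderm (M), cardiac mesoderm (CMes), cardiac progenitors (CP) and cardiomyocytes (CM). The lines UBE2B-/-1 and UBE2B-/-2 were made in separate editing experiments and were sequenced at the CM stage only, from beating cells. Selection in lactate after the onset of beating is part of the study's general protocol for cardiomyocytes and is not limited there to the mutant lines. Each of the 7 groups had 3 libraries of poly-A RNA, each from a plate differentiated at a different time.

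Guidance ligands were first known for steering axons, but the same ligand and receptor pairs steer migrating and sorting cells in many tissues, the heart among them. Secreted class 3 semaphorins bind neuropilins, which signal through plexins; ephrins on one cell bind EPH receptor tyrosine kinases on its neighbour; SLITs bind ROBO receptors, and netrins bind DCC and UNC5 receptors. In the developing heart SEMA3C and its receptors PLXNA2 and PLXND1 are known for septation of the outflow tract, EFNB2 and EPHB4 mark arterial and venous endothelium, and SLIT3 and ROBO genes act in the growth of chambers and valves.

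The tables hold the authors' comparisons of groups and list only transcripts with a Benjamini-Hochberg q of at most 0.05 in Sleuth's Wald test, so no library's own value is known and a missing transcript is not one at 0. A transcript is called here where it also changed at least 1.79-fold. The stated limit is a fold change of 1.5; it was read as the log2 of 1.5 set on effects that are natural logs, and counts under a plain 1.5-fold limit stayed within 1.5 times of those given. Levels are given as estimated counts per library, the mean of the 3 libraries on a log scale. They were worked out from the mean and the effect in each table and, for the stages, set on the scale of the CP to CM table. Depth is unknown. Sleuth takes the ratio of effect to error as normal; with a t distribution on the 4 or 6 residual degrees of freedom, adjusted over all transcripts tested, 2 member transcripts keep q of 0.05 or less, both from CP to CM, so the calls below rest on the normal test. The spread between libraries of 1 group, on the log2 scale, had a median over listed member transcripts of 0.23, 0.38, 0.28 and 0.51 at the 4 transitions, in order, and of 0.52 for UBE2B-/-1 against wild type. Markers of cell types were picked after values in these data were seen, so they are no independent check of the stage labels. Of these, 10 of 10 cardiomyocyte markers were called higher from CP to CM, and 7 of 9 pluripotency markers were called lower in that step. From iPSC to M, 2 of the 9 pluripotency markers were called lower. Markers of other cells moved as well: from M to CMes 7 of 10 mesenchymal and 5 of 8 endoderm markers were called higher. In the step to CP 5 mesenchymal, 5 endoderm and 4 of 6 epicardial markers were called higher and 1 mesenchymal and 1 endoderm marker lower. In the step to CM 6 of 6 smooth muscle markers were called higher and 6 endoderm and 3 epicardial ones lower, while 7 mesenchymal markers had a transcript called lower and 3 one called higher, COL1A1 being in both. Among 10 neural markers, 1 was called higher and 1 lower from M to CMes, 4 lower in the step to CP, and 2 (STMN2 and TUBB3) higher in the step to CM. Among 10 endothelial markers, 1 was called higher from M to CMes. In the step to CP 1 endothelial marker was called higher and 1 lower, and in the step to CM 3 (KDR, TEK and VWF) lower. The part of any marker's cells in the results on guidance genes was not tested.

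Calls among the guidance genes were few from iPSC to M and many from M to CMes, where nearly all went up. From iPSC to M, 4 of the 68 genes (5.88%) had a transcript called higher and 9 (13.2%) one called lower, against 3.1% and 4.17% of the 20020 protein-coding genes of the annotation. From M to CMes, 31 genes (45.6%) had a transcript called higher and 3 (4.41%) one called lower, against 8.9% and 6.52%. In the CMes to CP step the counts were 14 higher (20.6%) and 11 lower (16.2%), against 8.28% and 6.87%, and in the CP to CM step 19 higher (27.9%) and 24 lower (35.3%), against 16.8% and 14.9%. Member genes are long, with a median span of 61.9 kb against 27.4 kb for protein-coding genes, and have many annotated transcripts, and the part of either in these shares was not tested.

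Counted by transcript, 6 were called higher and 15 lower from iPSC to M, where 1.24% and 1.62% of all transcripts tested were called. From M to CMes the counts were 56 and 6, where 3.81% and 2.65% of all transcripts tested were called. How many member transcripts were tested is not known for any comparison. The counts of members were 33 and 14 in the step to CP, beside 3.8% and 2.63% of all transcripts tested. In the step to CM they were 35 and 46, beside 8.25% and 6.99%. EPHA1 is listed under a pair of transcript identifiers with identical values, which are copies of 1 sequence and count once among genes. Both identifiers are in the transcript counts. With the pair counted once, 14 were called lower from iPSC to M and 45 from CP to CM. The median log2 change of the transcripts called higher from M to CMes was 3.52 among members and 2.01 over all transcripts called higher.

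Of the 60 listed genes, 4 were called at all 4 transitions (NRP2, NTN1, NTN4 and SEMA3C), 12 at 3, 20 at 2, 21 at 1 and 3 at none (EFNA4, EFNA5 and PLXND1, which were called in mutant cells). The same counts were not made over all genes, and a gene is listed only if it changed in some comparison. They therefore show no trait particular to guidance genes. By family, and over all annotated members, 7 of 13 transmembrane or lipid-anchored semaphorins, 4 of 8 ephrins, 4 of 14 EPH receptors, 3 of 3 SLITs and 5 of 9 plexins were called higher from M to CMes, where 8.9% of protein-coding genes were, and none of these families had a gene called lower. In the step to CM, 5 of 9 plexins were called higher and 1 lower, and 4 of 14 EPH receptors higher and 7 lower. Of the 13 transmembrane or lipid-anchored semaphorins 2 had a transcript called higher and 6 one called lower, SEMA4D being in both, against 16.8% and 14.9% of protein-coding genes.

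**Figure D1:**
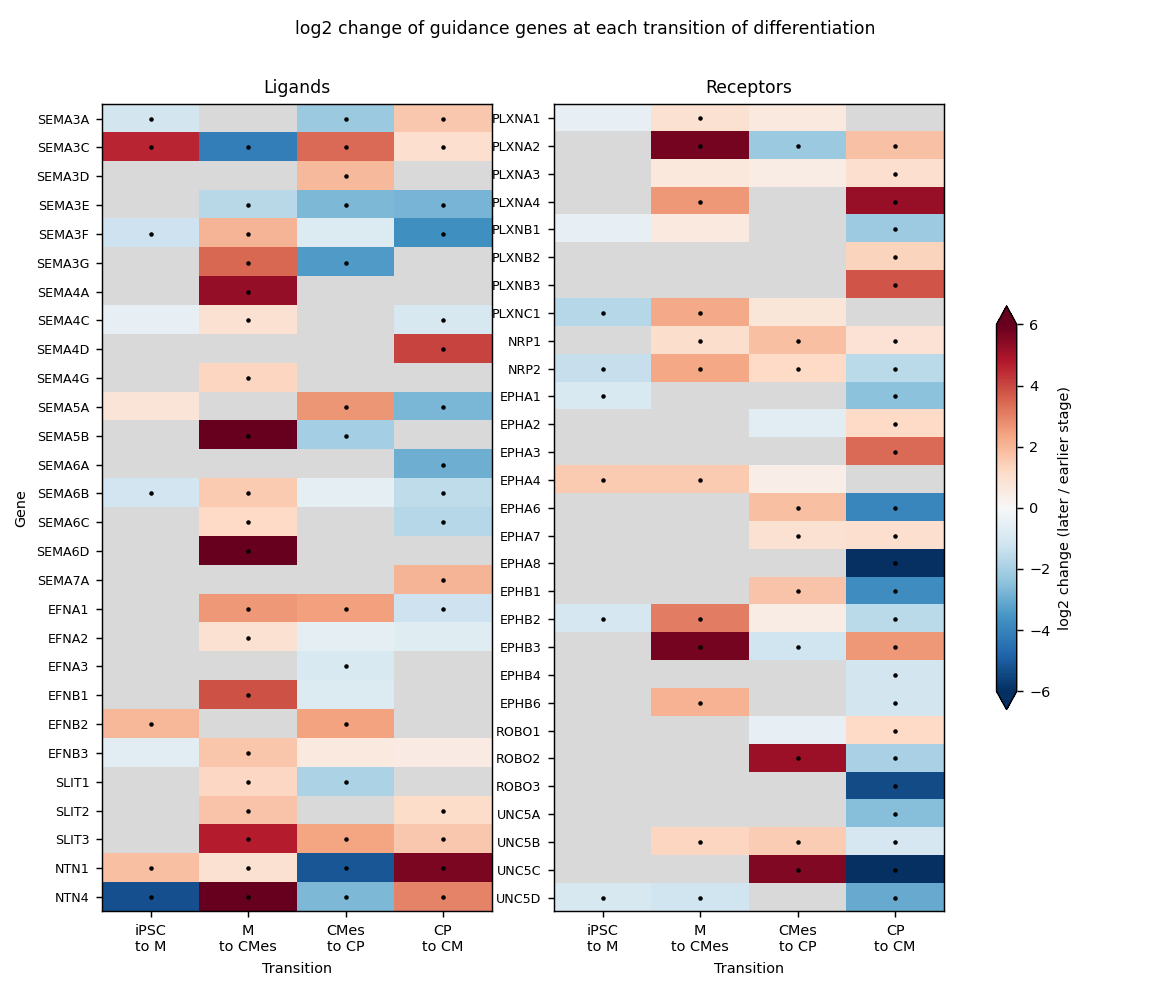
Heat map of the log2 change (colour, later over earlier stage, saturated at 6 and -6) of each listed guidance gene (rows) at the 4 transitions (columns), for the listed transcript with the highest mean; dots mark called changes and grey cells genes not listed. The M to CMes column is almost wholly red, with SEMA6D at 11.37 and SEMA3C, at -4.15, as the deepest blue.

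Among the ligands, SEMA3C went up, down and up again. This secreted semaphorin, which neural crest cells read on their way into the outflow tract, stood at 33.7 estimated counts per library in iPSCs, 821 in M, 45.6 in CMes, 480 in CP and 979 in CM. Its log2 changes were 4.59 ± 0.53 (SE, 3 libraries per group, q = 2.21e-15), -4.15 ± 0.37 (q = 2.64e-26), 3.38 ± 0.24 (q = 1.15e-42) and 1.03 ± 0.24. The steps between neighbouring stages were thus each called. A further transcript, SEMA3C-203, stood at 13.3, 679, 34.8, 441 and 787, its last step being under the fold limit.

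The other class 3 semaphorins, all secreted, followed courses of their own. SEMA3A, a repellent of sympathetic axons, was highest in iPSCs: SEMA3A-204 stood at 1040, 481, 523, 110 and 225 over the 5 stages, falling from iPSC to M (log2 change -1.11 ± 0.26) and from CMes to CP (-2.24 ± 0.32). SEMA3G and SEMA3F peaked in CMes. SEMA3G, a ligand of NRP2, stood at 73.7 in M, 809 in CMes and 76.9 in CP, with log2 changes of 3.45 ± 0.20 (q = 7.55e-65) and -3.39 ± 0.23 (q = 1.42e-46), so its levels in M and CP lay close together. SEMA3F, which also binds NRP2, stood at 734, 310, 1266, 726 and 55.8, and its last step, a log2 change of -3.69 ± 0.77, was the steepest. SEMA3D rose from 48.8 in CMes to 187 in CP (1.93 ± 0.51).

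Transmembrane semaphorins act at the cell surface as ligands and, for class 6, also as receptors. SEMA6D, which binds PLXNA1 in the developing ventricle, had the largest fitted change of any member. Its transcript SEMA6D-201 was at 0 in the M libraries and at 1178 in CMes, at least 393-fold higher when M is set at a floor of 3 estimated counts per library, and the fitted log2 change was 11.37 ± 0.57 (q = 1.23e-85). Of its 6 listed transcripts, 5 were at 0 in M, and all 6 were called higher. SEMA6D was listed at no other transition. Its level in CP is not known, and in wild-type CM SEMA6D-204 alone has a value, given below with the mutant lines.

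SEMA5A and SEMA6A both had transcripts that fell from CP to CM. SEMA5A, whose extracellular part carries thrombospondin repeats, stood at 195 in iPSCs, 333 in M, 409 in CMes and 2580 in CP, and the last of these steps (2.66 ± 0.13, q = 2.63e-93) had the largest ratio of change to error among members called higher at that transition. Its second transcript, SEMA5A-205, stood at 15.8 in CMes, 324 in CP and 48.0 in CM. The more abundant SEMA5A-201, whose levels come first, was not listed from CP to CM, so its level in CM is not known. SEMA6A, a ligand of PLXNA2 and PLXNA4, was listed only from CP to CM, where all 6 of its listed transcripts fell: SEMA6A-202 went from 6633 to 862 (-2.94 ± 0.26, q = 1.02e-26) and SEMA6A-201 from 3647 to 221 (-4.04 ± 0.32). Per kilobase of spliced length, SEMA6A-202 was the highest listed member in CP, at 971 estimated counts per kb. SEMA6B, of the same class, stood at 818, 368, 1093, 762 and 269 over the 5 stages, with 3 called steps (-1.15 ± 0.18, 1.57 ± 0.15 and, into CM, -1.50 ± 0.47). SEMA5B was called higher from M to CMes and lower from CMes to CP (-2.04 ± 0.40), and SEMA7A, which is tethered to the membrane by a lipid anchor, went from 130 in CP to 544 in CM (2.06 ± 0.76).

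Of the ephrins, EFNA1 and EFNB2 were highest in progenitors among the stages at which they were listed. EFNA1, an A-class ephrin held by a lipid anchor, stood at 32.6 in M, 201 in CMes, 1101 in CP and 462 in CM, rising by 2.61 ± 0.65 and 2.45 ± 0.18 and then falling by 1.25 ± 0.15 on the log2 scale (q = 1.53e-14). EFNB2, a transmembrane ephrin that also signals back into its own cell, stood at 61.3 in iPSCs, 246 in M, 125 in CMes and 667 in CP, with called rises from iPSC to M (1.998 ± 0.60) and from CMes to CP (2.41 ± 0.27). EFNB1, another transmembrane ephrin, rose from 100.1 in M to 1430 in CMes (3.83 ± 0.33, q = 4.7e-29). EFNB3 was called at 1 transition only, M to CMes (1.64 ± 0.19), and was listed with smaller changes elsewhere, from 493 in iPSCs and 316 in M to 2132 in CM.

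SLIT3 went up at all 3 transitions at which it was listed. SLIT ligands are large secreted proteins that are cut into fragments. SLIT3-205 stood at 3.27 in M, 228 in CMes, 1174 in CP and 3590 in CM, and its log2 changes were 5.92 ± 1.58, 2.36 ± 0.22 (q = 1.82e-25) and 1.61 ± 0.22 (q = 1.49e-11). SLIT2-204 went from 354 in M to 1165 in CMes and from 1234 in CP to 2622 in CM. SLIT1 stood at 38.9 in M, 91.7 in CMes and 24.6 in CP, with a called fall from CMes to CP (-1.88 ± 0.50).

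Both listed netrins, laminin-like secreted proteins, were called at all 4 transitions. NTN1, the classic ligand of DCC and UNC5 receptors, stood at 125, 443, 832, 23.6 and 1192 over the 5 stages. It rose by 1.83 ± 0.20 (q = 2.23e-17) and 0.91 ± 0.14, fell by 5.11 ± 0.65 from CMes to CP (q = 2.41e-13) and rose by 5.63 ± 1.09 from CP to CM, so that its level in CP was under that of every other stage. NTN4, a netrin of basement membranes, went the other way at first, from 43.9 in iPSCs to 0.60 in M, and then stood at 182 in CMes, 27.7 in CP and 221 in CM. Both netrins were lowest in CP among the last 3 stages.

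**Figure D2:**
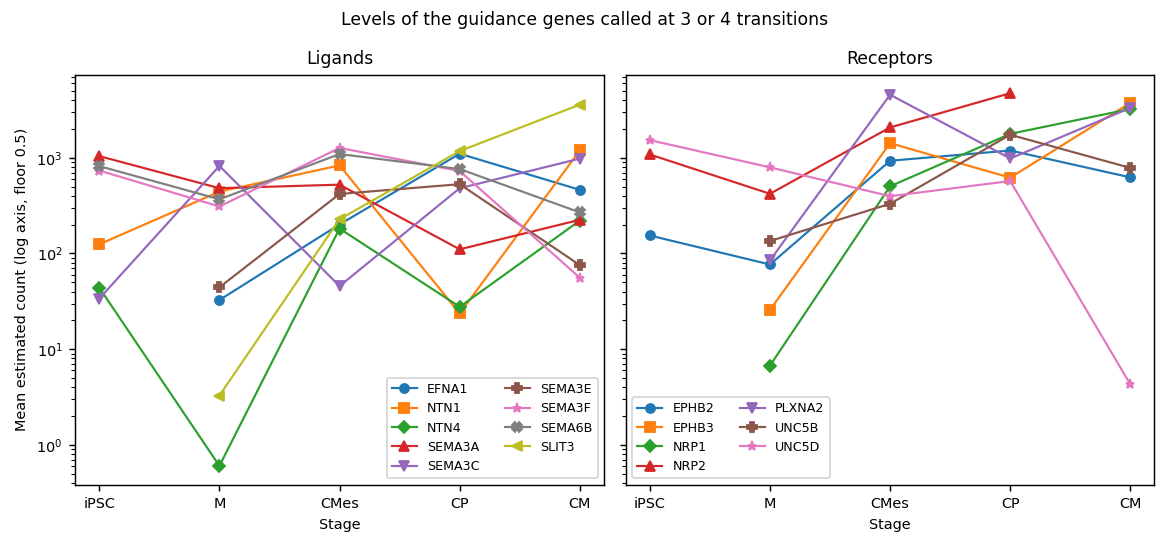
Mean estimated count per library (log axis, values under 0.5 drawn at 0.5) at each stage where it is known, for the 16 guidance genes called at 3 or 4 transitions, ligands on the left and receptors on the right, 1 transcript per gene. SEMA3C peaks in M and again in CM (821 and 979), NTN1 dips in CP (23.6), and PLXNA2 peaks in CMes (4554).

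Among the receptors, PLXNA2 had the largest ratio of change to error of any member. This plexin, the signalling partner of neuropilins for SEMA3C and a receptor for class 6 semaphorins, stood at 84.4 in M, 4554 in CMes, 982 in CP and 3318 in CM. It rose by 5.75 ± 0.21 (q = 5.22e-161), fell by 2.21 ± 0.11 (q = 1.46e-89) and rose by 1.76 ± 0.16 (q = 1.84e-24). PLXNA4, a receptor for SEMA3A with neuropilin 1, stood at 27.9 in M, 174 in CMes, 108 in CP and 3996 in CM. It rose by 2.62 ± 0.41 into CMes and by 5.21 ± 0.60 into CM (q = 2.45e-16), where all 3 of its listed transcripts were called higher. PLXNA3 and PLXNB2 also rose from CP to CM, by 1.02 ± 0.15 and 1.34 ± 0.35, and PLXNC1, a receptor for SEMA7A, went from 96.9 in iPSCs to 28.8 in M and 143 in CMes.

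Listed transcripts of the neuropilins parted at the last transition. NRP1, the co-receptor of SEMA3A and of VEGF, rose at 3 transitions: NRP1-206 stood at 6.73 in M, 503 in CMes, 1776 in CP and 3232 in CM. NRP2, the co-receptor of SEMA3F, SEMA3G and SEMA3C, was called at all 4 transitions, with NRP2-204 at 1082 in iPSCs, 420 in M, 2073 in CMes and 4727 in CP. NRP2-204 was not listed from CP to CM, where NRP2-203 fell from 677 to 218 (-1.63 ± 0.53) and NRP2-206 fell as well. From CP to CM, NRP1 was therefore called higher, and NRP2 lower by these less abundant transcripts only. The level of NRP2-204 in CM is not known, so no direction is given for NRP2 as a whole. Both genes had been called higher at the preceding pair of transitions.

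The EPH receptors, receptor tyrosine kinases for the ephrins, split into genes called higher and genes called lower at the last transition. EPHB3 was the receptor with the highest level per length among listed members in CM, at 885 estimated counts per kb, and stood at 25.7 in M, 1420 in CMes, 619 in CP and 3748 in CM. It rose by 5.76 ± 0.73, fell by 1.199 ± 0.17 (q = 2.09e-10) and rose by 2.60 ± 0.31 (q = 8.45e-15). EPHB2, its close relative, stood at 166 in M, 1407 in CMes, 1909 in CP and 618 in CM (EPHB2-203), so the pair rose together into CMes and moved in opposite directions into CM (EPHB2, -1.63 ± 0.15, q = 3.81e-25). EPHA4, a receptor for ephrins of both classes, rose from 205 in iPSCs to 614 in M and 1805 in CMes and stood at 2409 in CP.

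EPHA6 and EPHB1 were higher in CP than in CMes and in CM. EPHA6-202 stood at 74.1 in CMes, 258 in CP and 16.5 in CM, and EPHB1 at 102, 337 and 25.1. Both fell into CM, with log2 changes of -3.93 ± 0.56 and -3.72 ± 0.51. EPHA7 rose at both of these transitions, from 378 to 714 and then to 1422 (0.92 ± 0.16 and 0.99 ± 0.14, q = 3.73e-11 for the latter). EPHA2, a receptor of EFNA1, rose from 1104 in CP to 2562 in CM (1.21 ± 0.19) and EPHA3 from 10.03 to 112 (3.42 ± 0.73), while EPHB4 fell from 2581 to 1197 (-1.11 ± 0.32). EPHA1 fell from 992 in iPSCs to 534 in M and from 339 in CP to 60.9 in CM.

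ROBO2 and the UNC5 receptors were higher in CP than in CM. ROBO2-202 stood at 18.5 in CMes, 658 in CP and 171 in CM (5.12 ± 0.57, q = 5.41e-17, and then -1.94 ± 0.58), and 5 of its 5 listed transcripts were called higher from CMes to CP. ROBO1 ran the other way: ROBO1-202 stood at 735 in CMes, 197 in CP and 1249 in CM, both steps being called (-1.90 ± 0.60 and 2.66 ± 0.60), while its more abundant transcript ROBO1-209 stood at 1166, 829 and 1881, of which the latter step was called (1.18 ± 0.41). UNC5B, a netrin receptor of endothelium and other tissues, stood at 135 in M, 330 in CMes, 1738 in CP and 783 in CM. UNC5C-204 was at 1.79 in CMes, 107 in CP and 0 in CM, at least 35.7-fold lower in CM over the same floor. UNC5D was high in iPSCs, at 1527 for UNC5D-201, and fell to 794 in M, 396 in CMes and, after 571 in CP, to 4.28 in CM. All 4 UNC5 genes had a transcript called lower from CP to CM, against 14.9% of protein-coding genes. At the same transition the 2 listed netrins, of 4 annotated, were called higher, against 16.8%. A link between these changes was not tested.

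The remaining members were called at fewer transitions, most of them up into CMes or down into CM. PLXNA1, a plexin used by class 3 and class 6 semaphorins, stood at 1729 in M and 3243 in CMes (0.91 ± 0.12). EFNA2 rose in that step (0.90 ± 0.16), and so did SEMA4A, SEMA4G, the PLXNB1 transcript PLXNB1-218 and SEMA6C-204 (5.25 ± 1.80, 1.28 ± 0.45, 1.16 ± 0.22 and 1.21 ± 0.39). SEMA4C, a ligand of PLXNB2, stood at 1368, 987, 1877, 1689 and 857 over the 5 stages, its rise into CMes (0.93 ± 0.13) and fall into CM (-0.98 ± 0.25) being called. EPHB6 likewise rose into CMes (2.09 ± 0.71) and fell into CM (-1.10 ± 0.41). EFNA3 fell from CMes to CP (-0.90 ± 0.26). EPHA8, at 33.7 in CP and 0 in CM, was at least 11.2-fold lower in CM over the floor of 3, and ROBO3-208, UNC5A and SEMA6C-201 fell into CM as well (-5.37 ± 1.27, -2.54 ± 0.92 and -1.70 ± 0.40). PLXNB3 rose from 1.08 in CP to 20.8 in CM (3.75 ± 1.37). Of the transcripts named here, PLXNB1-218 and ROBO3-208 are annotated as retained introns.

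Transcripts of 1 gene did not always move together. SEMA3E and SEMA4D had transcripts called in opposite directions at 1 transition. From M to CMes, SEMA3E-206, of 333 bases and with no coding sequence in the annotation, fell from 727 to 226 (-1.68 ± 0.25). SEMA3E-204, which encodes the full 775 codons, rose from 44.3 to 418 in the same step (3.22 ± 0.60), as did SEMA3E-205 (2.13 ± 0.28). The direction of SEMA3E from M to CMes therefore depends on the transcript, and its sum over listed transcripts changed by 0.10 on the log2 scale. All 4 listed SEMA3E transcripts fell from CP to CM.

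SEMA4D, a ligand of PLXNB1, was listed only from CP to CM. SEMA4D-211, which encodes 862 codons, was at 177 in CP and 1.498 in CM. SEMA4D-213 and SEMA4D-207, which encode 738 codons with another coding end, went from 20.4 to 348 and from 0 to 78.1. Among the listed transcripts the longer form was thus higher in CP and the shorter ones in CM, with standard errors of 2.01 for SEMA4D-211, 1.03 for SEMA4D-213 and 1.59 for SEMA4D-207 on the log2 scale. A short NRP1 transcript of 76 codons and NRP1-204 also rose into CM beside NRP1-206. NRP1-204 has 12 coding exons with 644 codons, against 923 codons in the full form, and another coding end; neuropilin forms that end this early are known to be secreted. It went from 363 in CP to 1047 in CM (1.53 ± 0.20).

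**Figure D3:**
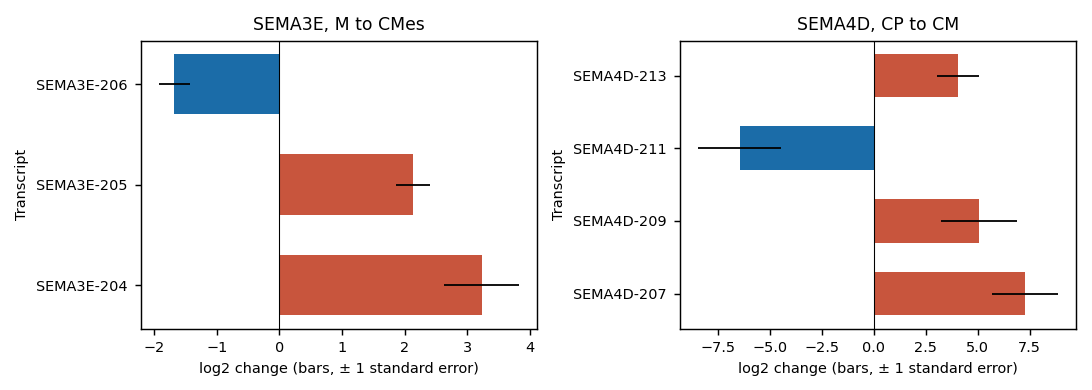
log2 change (bars, error bars 1 standard error, 3 libraries per group) of the listed transcripts of SEMA3E from M to CMes and of SEMA4D from CP to CM. SEMA3E-206 (-1.68) and SEMA4D-211 (-6.47) point left, while the other transcripts of each gene point right.

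Other genes of guidance pathways, a list of 41 that are no members (DCC, neogenin, repulsive guidance molecules, FLRTs, collapsin response mediators, MICALs, SLIT-ROBO GAPs and other adaptors), changed in both directions at each step. Of these, 2 genes had a transcript called higher and 7 one called lower from iPSC to M, 9 and 6 on the way to CMes, 9 and 7 on the way to CP, and 10 and 15 in the last step. The shares over protein-coding genes were 3.1% and 4.17%, 8.9% and 6.52%, 8.28% and 6.87%, and 16.8% and 14.9%, in the same order. The most abundant listed transcript of DPYSL2, a collapsin response mediator of semaphorin signalling, fell from iPSC to M (-1.14 ± 0.14). NEO1, a receptor of netrins and repulsive guidance molecules, and FLRT2, a partner of UNC5 receptors, rose from M to CMes (1.86 ± 0.12 and 2.29 ± 0.20), while DPYSL3 fell (-2.29 ± 0.26). MICAL2, an actin oxidase of the plexin pathway, rose from CMes to CP (3.25 ± 0.13), as did SRGAP1 (1.88 ± 0.13) and FLRT2 again (1.83 ± 0.11). From CP to CM, MICAL3 and ABLIM1 rose (2.59 ± 0.15 and 2.997 ± 0.23) and FLRT3 fell (-2.83 ± 0.18).

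In the UBE2B-/- cardiomyocytes more guidance genes were higher than lower. UBE2B itself was listed with 1 transcript, lower in UBE2B-/-1 by 1.91 ± 0.53 on the log2 scale and not listed in UBE2B-/-2, where the value worked out from the fit was -1.57. In UBE2B-/-1, 17 of the 68 genes (25.0%) had a transcript called higher and 6 (8.82%) one called lower, against 5.91% and 4.12% of protein-coding genes, and in UBE2B-/-2 13 (19.1%) and 4 (5.88%), against 6.49% and 3.54%. By transcript the counts were 21 and 8 in line 1, where 2.18% and 1.72% of all transcripts tested were called. In line 2 they were 16 and 4, where 2.46% and 1.53% of all transcripts tested were called. Both lines were set against the same 3 wild-type libraries. For the mean of both lines, 14 genes (20.6%) had a transcript called higher and 4 (5.88%) one called lower, against 5.51% and 3.43%. By transcript these were 17 and 5, where 2.04% and 1.55% of all transcripts tested were called. These last counts are lower bounds, since a transcript listed in neither table was not seen, and 6 of the 36 member transcripts listed in 1 line or both could not be completed.

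Other cells' genes moved in the same libraries. Of 10 cardiomyocyte markers, 6 were called lower in the mean of both lines, among them PLN (-1.996 ± 0.32), RYR2 (-2.37 ± 0.48) and TNNT2 (-1.62 ± 0.36), and of 10 mesenchymal markers 6 were called higher, among them COL3A1 (4.16 ± 0.69) and DCN (7.23 ± 1.69). The summed level of the 24 listed cardiomyocyte marker transcripts was 194000 estimated counts for wild type, 62400 for line 1 and 53200 for line 2, and that of the 12 listed mesenchymal ones 12700, 124000 and 296000. A transcript is listed only where it passed the test against wild type in 1 line or both, so unchanged markers are left out. The sums held 7 of the 10 cardiomyocyte and 6 of the 10 mesenchymal genes and are no level of either marker set. Of 10 endothelial markers KDR alone was listed, and of 6 epicardial ones TCF21 alone, both called higher (1.57 ± 0.47 and 3.10 ± 0.93). CNN1 was called lower among 6 smooth muscle markers and TUBB3 higher among 10 neural ones. The part of any of these in the results on guidance genes was not tested. In bulk libraries fewer cells of a type and less RNA per cell cannot be told apart.

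Of the 8 ephrins, 5 were called higher in the mean of both lines and none lower, against 5.51% and 3.43% of protein-coding genes. EFNB2-202 stood at 513 estimated counts in wild-type CM, 1732 in line 1 and 2877 in line 2, log2 changes of 1.76 and 2.49 (SE 0.43 for each line) and 2.12 ± 0.37 for their mean (q = 1.74e-06). EFNA4 stood at 185, 427 and 399 (mean change 1.16 ± 0.23, q = 5.5e-05) and EFNA3 at 46.1, 143 and 150 (1.66 ± 0.35, q = 0.0002). EFNA1 stood at 533, 849 and 855, and its mean change of 0.68 ± 0.18 missed the fold limit. Each of these stood above wild type in both lines. EFNB2-201, which has no coding sequence defined, stood at 2.82, 1058 and 1020 (8.29 ± 1.84, q = 0.000396). Its spread between libraries of 1 group was 2.60 on the log2 scale, so these levels are loose. EFNA2 was higher as well (0.96 ± 0.28, q = 0.0129), and EFNA5-204 stood at 0.68, 32.5 and 50.5 (5.12 ± 1.04, q = 7.27e-05). In UBE2B-/-2, a second EFNA5 transcript that is absent from the annotation was called lower (-6.41 ± 2.10, q = 0.0486), so EFNA5 had opposite calls in that line.

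EFNA4, EFNA3 and EFNA1 lie in a row on the plus strand of chromosome 1, within 71.2 kb (GRCh38: EFNA4 155063737 to 155069553, EFNA3 155078837 to 155087538, EFNA1 155127876 to 155134899). The annotation also holds an EFNA4-EFNA3 readthrough gene there, whose reads could be shared between these genes. Their promoters are shown because these neighbours, of which EFNA4 and EFNA3 were called higher and EFNA1 was under the fold limit, lie side by side, with that of EFNB2, the ephrin with the smallest adjusted p, and those of PLXNA4 and EPHA7, which fell. Each window runs from 250 bases before to 50 after a RefSeq start, on the strand of the gene, with CpG dinucleotides in capitals; PLXNA4 has a further start upstream in GENCODE. The windows are chr1:155063490-155063789 (plus), chr1:155078587-155078886 (plus), chr1:155127626-155127925 (plus), chr13:106535613-106535912 (minus), chr7:132576421-132576720 (minus) and chr6:93419510-93419809 (minus), in this order.
EFNA4: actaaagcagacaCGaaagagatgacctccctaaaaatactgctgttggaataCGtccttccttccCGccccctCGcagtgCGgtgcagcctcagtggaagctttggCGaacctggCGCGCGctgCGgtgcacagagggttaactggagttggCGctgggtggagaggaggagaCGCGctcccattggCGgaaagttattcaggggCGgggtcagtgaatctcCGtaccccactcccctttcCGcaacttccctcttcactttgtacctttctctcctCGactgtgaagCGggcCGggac
EFNA3: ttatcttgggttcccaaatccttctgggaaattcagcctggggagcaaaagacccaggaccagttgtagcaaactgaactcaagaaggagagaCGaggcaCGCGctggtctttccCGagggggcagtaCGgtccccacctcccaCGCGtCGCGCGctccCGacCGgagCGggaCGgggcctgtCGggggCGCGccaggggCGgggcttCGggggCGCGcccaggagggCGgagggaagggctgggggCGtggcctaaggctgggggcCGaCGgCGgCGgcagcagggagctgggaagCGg
EFNA1: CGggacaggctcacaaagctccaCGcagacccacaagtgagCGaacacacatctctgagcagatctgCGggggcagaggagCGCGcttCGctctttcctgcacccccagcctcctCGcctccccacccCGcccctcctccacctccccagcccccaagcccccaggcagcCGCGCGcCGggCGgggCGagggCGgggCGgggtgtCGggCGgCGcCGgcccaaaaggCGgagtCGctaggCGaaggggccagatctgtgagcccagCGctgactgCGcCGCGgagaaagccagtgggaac
EFNB2: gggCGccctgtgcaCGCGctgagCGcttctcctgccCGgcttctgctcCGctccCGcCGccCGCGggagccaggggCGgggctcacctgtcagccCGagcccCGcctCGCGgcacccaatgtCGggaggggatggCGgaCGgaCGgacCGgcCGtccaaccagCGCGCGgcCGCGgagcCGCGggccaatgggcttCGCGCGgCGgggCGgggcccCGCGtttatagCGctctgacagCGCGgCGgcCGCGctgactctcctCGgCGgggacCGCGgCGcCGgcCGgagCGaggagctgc
PLXNA4: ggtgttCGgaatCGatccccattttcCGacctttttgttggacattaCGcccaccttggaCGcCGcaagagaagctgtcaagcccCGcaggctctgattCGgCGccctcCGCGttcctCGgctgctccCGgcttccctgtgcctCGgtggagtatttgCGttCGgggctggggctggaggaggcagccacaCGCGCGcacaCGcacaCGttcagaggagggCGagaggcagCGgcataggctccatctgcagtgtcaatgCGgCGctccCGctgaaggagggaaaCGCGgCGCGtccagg
EPHA7: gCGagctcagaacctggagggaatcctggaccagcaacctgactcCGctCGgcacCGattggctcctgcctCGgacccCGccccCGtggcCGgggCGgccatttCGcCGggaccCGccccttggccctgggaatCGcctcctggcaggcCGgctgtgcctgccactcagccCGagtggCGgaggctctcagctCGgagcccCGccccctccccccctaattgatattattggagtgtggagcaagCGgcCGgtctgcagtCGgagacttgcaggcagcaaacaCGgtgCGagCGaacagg

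These windows hold 20, 28, 28, 49, 30 and 24 CpGs, against a median of 14 over the 35116 RefSeq windows, which include those of non-coding genes, and of 27.5 over the 58 members that have one. Over the 12 members called higher in the mean of both lines that have a window the median was 36.5 CpGs (range 3 to 52), and over the 3 called lower 30 (range 24 to 36). The GC box GGGCGG was found on either strand in 51 of the 58 member windows (87.9%) and in 45.0% of all windows, TATAAA in 1 (1.72%, EFNB2) against 11.5%, and AGATAA, the site of GATA factors, in 5 (8.62%) against 10.3%. Among the windows printed, PLXNA4 alone lacks GGGCGG. A match of letters is not a bound site.

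EPH receptors moved in both directions. EPHB4, the receptor of EFNB2, had the smallest adjusted p of any member in the mean of both lines (1.57 ± 0.24, q = 1.35e-08), at 1382 in wild-type CM, 4081 in line 1 and 4108 in line 2. The receptor and its ligand EFNB2 were thus both higher in each line. EPHB6, a receptor without kinase activity, was higher too (1.35 ± 0.36, q = 0.00527). EPHA7 was lower, at 1641, 745 and 863 (-1.03 ± 0.26, q = 0.0031).

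Of the semaphorins, SEMA3F had the largest change among those with over 50 estimated counts in each group. SEMA3F-201 stood at 64.3, 549 and 678 (3.24 ± 0.56, q = 1.39e-06), and SEMA3F-207, at 1.06, 75.2 and 116, changed in the same direction. SEMA3D, which repels endothelial cells, stood at 331, 694 and 879 (1.24 ± 0.24, q = 2.42e-05), and SEMA6A-202 at 995, 1852 and 2114 (0.99 ± 0.18, q = 2.85e-06). SEMA4C, a ligand of PLXNB2 (1.02 ± 0.26), and SEMA6B (1.76 ± 0.51) were also called higher, and no semaphorin was called lower in the mean of both lines.

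The semaphorin receptors parted. PLXND1, the plexin of SEMA3E and SEMA3C in vessels, was higher, at 871, 2670 and 3211 (1.75 ± 0.42, q = 0.00147), and PLXNA4 was lower, with PLXNA4-201 at 4612, 940 and 1146 (-2.15 ± 0.49, q = 0.000602). PLXNA4-202 was lower as well (-1.73 ± 0.45). Of NRP1, the partner of PLXNA4 for SEMA3A, the transcript of 76 codons was called lower, at 164, 59.5 and 54.2 (-1.52 ± 0.37), and the secreted form NRP1-204, at 1209, 644 and 724, came close to the fold limit without reaching it (-0.82 ± 0.19, q = 0.000782). SLIT2-203 stood at 1701, 679 and 992 (-1.05 ± 0.25), the value of line 2 being worked out from the fit. The more abundant SLIT2-204, at 3026, 1727 and 2823, did not pass the test in the mean of both lines (-0.45 ± 0.20, q = 0.52), so SLIT2 counts as lower by 1 of its 2 listed transcripts. ROBO3-208 stood at 0.47, 21.5 and 13.9 (4.203 ± 1.17, q = 0.00888). It is annotated as a retained intron, and ROBO3 counts as higher by this transcript alone.

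**Figure D4:**
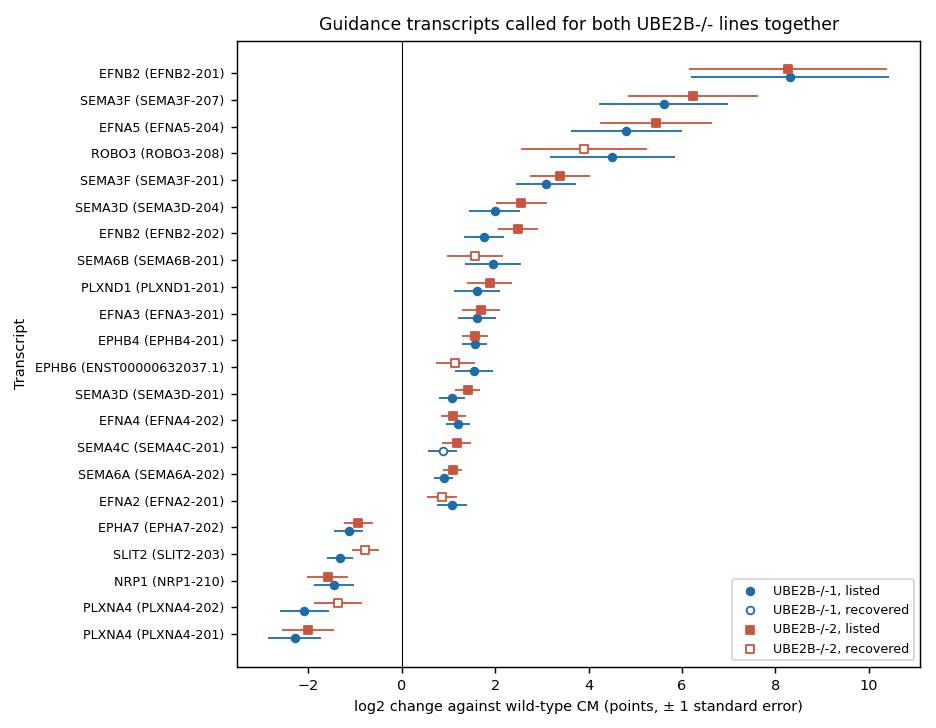
log2 change against wild-type CM in UBE2B-/-1 (circles) and UBE2B-/-2 (squares), with 1 standard error, for the 22 guidance transcripts called in the mean of both lines; open symbols are values worked out for the line in which the transcript is not listed. In both lines 17 transcripts lie to the right of 0 and 5 to the left, and the error bars of the lines overlap for all 22.

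The difference between the lines was tested for 30 member transcripts. It reached q = 0.05 or less for 2 of them, SEMA6D-204 and PLXNB1-218, neither of which was called in the mean of both lines. PLXNB1-218 is annotated as a retained intron. SEMA6D-204 stood at 153 estimated counts in wild-type CM, 0.69 in UBE2B-/-1 and 163 in UBE2B-/-2 (difference 7.09 on the log2 scale, q = 0.00183), and PLXNB1-218 at 243, 616 and 291 (-1.08, q = 0.0124). Adjusted over all transcripts tested, q was 0.0372 for SEMA6D-204 and 0.254 for PLXNB1-218, and with a t distribution neither passed. For the remaining transcripts the smallest q was 0.113, which does not show that the lines were alike.

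Several of these transcripts had also changed from CP to CM in wild-type cells. That comparison and the mutant ones share the wild-type CM libraries, so the values are given side by side only. SEMA3F-201 changed by -3.69 from CP to CM and by 3.08 and 3.39 in lines 1 and 2. EPHB4 changed by -1.11, and by 1.56 and 1.57, and SEMA6A-202 by -2.94, and by 0.90 and 1.09. PLXNA4-201 changed by 5.21, and by -2.29 and -2.01, EPHA7 by 0.99, and by -1.14 and -0.93, and SLIT2-203 by 1.51, and by -1.32 and -0.78.

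**Figure D5:**
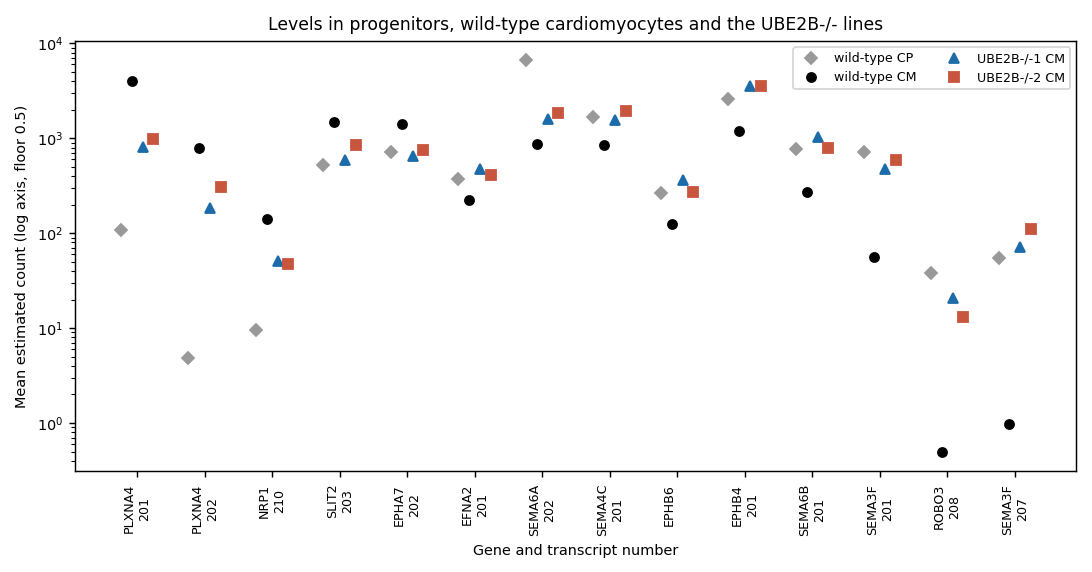
Mean estimated count per library (log axis, floor 0.5) in wild-type CP (diamonds), wild-type CM (circles), UBE2B-/-1 CM (triangles) and UBE2B-/-2 CM (squares), for the 14 transcripts called in the mean of both lines and listed from CP to CM. For PLXNA4-201 the wild-type CM value (3996) lies above the other groups, and for SEMA3F-201 (55.8) below them.

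Gene length and base composition differed with direction among these genes as among all. The 14 genes with a transcript called higher had a median span of 29.5 kb and the 4 with one called lower, PLXNA4, EPHA7, NRP1 and SLIT2, 274 kb, against 26.9 kb and 70.3 kb over all genes called. The median GC content of the called transcripts was 60.8% and 46.2% among members and 58.9% and 43.7% over all. The part of either in the result was not tested.

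Of the other 41 pathway genes, 7 had a transcript called higher and 2 one called lower in the mean of both lines, against 5.51% and 3.43% of protein-coding genes. FES, a kinase that acts with plexins and collapsin response mediators (6.02 ± 1.15), and FARP1, a partner of class A plexins (1.203 ± 0.25), were higher, and MICAL2 was lower (-1.38 ± 0.25). In line 1 alone the counts were 8 and 2, and in line 2 alone 5 and 1.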

How the data were processed

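RNA-seq of PGP1 cells at 5 stages, and of CMs of 2 UBE2B-/- lines, was analysed from the authors' 6 deposited Sleuth tables (21 libraries, 3 per group). The authors quantified transcripts with kallisto and compared groups with sleuth (hg38, per the labels). The tables hold these comparisons and nothing per library (0 columns of per-sample values), so the authors' columns were used: p-values and q-values of a Wald test, as deposited; effects, errors and means of natural log estimated counts plus 0.5, as deposited; and variance terms, treated as a score, as deposited by the authors. Rows stop at q = 0.05.

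Effects were divided by the natural log of 2. A call needs q of at most 0.05 and an effect of at least 0.585 on the natural log scale. Group means were solved from each mean and effect, and tables were aligned by the median offset of a shared group's means. The UBE2B tables share 1 fit of 9 libraries: the mean of both lines has 0.866 times the standard error of 1 line, and the effect in a line where a transcript is not listed was solved from the variance terms and, where needed, the wild-type mean. Benjamini-Hochberg adjustment was over the 65457 transcripts tested in that fit, and for the difference between lines over the 3212 with both effects. The steps were tested on simulated data. The errors behind the p-values join Sleuth's final variance estimate with a technical term and are not the spread between plates alone. For EFNA4 in the UBE2B fit, that spread was 0.12 and the standard error of 1 line 0.27 on the log2 scale. Variation between the separately edited lines does not enter the error of their mean.

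Where a gene had more than 1 transcript in a table, its most abundant one was taken. Picked to be named were up to 8 genes per direction and comparison with the largest ratio of effect to error. Added to them were those called in the mean of both lines, those with opposing transcripts and those called at 3 or more transitions. Not every one of these is printed with its statistics, and other members are named with their values. TNNT2, TUBB3 and other markers were picked after their values were seen. Members and lists were chosen with earlier results of these data known. Positions and transcript names are from GENCODE 44 (130 of 136 member transcripts matched), promoters from RefSeq (GRCh38.p14, 58 of 68 genes). Python 3.11.15, pandas 2.3.3 and scipy 1.17.1 were used. The closing section gives the alternatives tried.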

Additional observations from a re-analysis of the deposited data

Results flagged for a closer look

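The effects of the 2 UBE2B-/- lines differed for SEMA6D-204 and PLXNB1-218 in a test of the difference itself, adjusted over the transcripts with an effect in both lines. UBE2B-/-2 minus UBE2B-/-1 was 7.09 on the log2 scale for SEMA6D-204 and -1.08 for PLXNB1-218. Both were listed in UBE2B-/-1 only, and their values in UBE2B-/-2 were worked out from the variance terms of the fit. Adjusted over all transcripts tested, q was 0.0372 for SEMA6D-204 and 0.254 for PLXNB1-218.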

How the results depend on the processing

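No paired analysis was possible because no library's own value was used here: the tables hold fits over all libraries of a comparison. For the same reason no library could be left out, and depth, and the limit it sets, is unknown. The counts of called member transcripts stayed within 1.5 times under a fold limit of 1.5, under no fold limit, with at least 10 estimated counts in the higher group and with protein-coding transcripts only. At q of at most 0.01, UBE2B-/-1 fell from 21 to 13 higher and UBE2B-/-2 from 4 to 1 lower, and the other 12 counts stayed within 1.5 times. With a t distribution on the 4 (stages) or 6 (UBE2B) residual degrees of freedom, adjusted over all transcripts, the counts were 0 in both directions in every comparison, except 2 lower from CP to CM; at an unadjusted p under 0.05 the listed member transcripts numbered 26 of 26, 64 of 64, 61 of 61 and 75 of 84 at the 4 transitions, 31 of 31 and 22 of 22 in the lines and 28 of 30 in their mean. Since transcripts are listed only at q of at most 0.05 in the normal test, these unadjusted counts follow largely from the listing and say nothing of stability. The difference between lines went from 2 transcripts to 1 when adjusted over all transcripts tested and to 0 with the t distribution, both chosen after seeing the data. Taking the listed transcript with the largest ratio of effect to error left 93 values with the same direction and reversed SEMA3E from M to CMes (2.13) and EFNA5 in UBE2B-/-2 (5.44). Summing a gene's listed transcripts left 81 values within 1 standard deviation, moved 11 in the same direction and reversed SEMA3E from M to CMes (0.10).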
